A study of Mus musculus with 14 samples.

Results

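The 38 genes described here encode the proteins that take glucose into mouse cells, break it down to pyruvate by glycolysis, exchange lactate, and store and release glycogen. They were listed by symbol from the steps of these pathways, with earlier results of these data known, and all 38 were found among the 55416 genes listed for each library. By role they comprise 3 glucose carriers, 3 hexokinases, 6 enzymes of upper glycolysis, 4 enzymes that set the level of the phosphofructokinase activator, 8 enzymes of lower glycolysis, 4 genes of lactate formation and transport, 2 pyruvate dehydrogenase kinases, 7 genes of glycogen metabolism and 1 bisphosphatase of glucose synthesis.

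Glycolysis splits glucose into pyruvate and yields a little ATP without oxygen, and lactate dehydrogenase then converts pyruvate to lactate and back. Most steps can be run by several isozymes, products of separate genes that differ between tissues: fast skeletal muscle is known for Slc2a4, Pfkm, Pgam2, Eno3 and Pygm, and many tumours for Slc2a1, Hk2, Pkm, Ldha and Slc16a3. Muscle also keeps a glycogen store that phosphorylase breaks down during contraction.

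Levels come from bulk RNA-seq of lung and gastrocnemius (a muscle of the calf) from C57BL/6 males (C57BL/6NCrlOri) aged 6 to 8 weeks. Tumour-bearing (TB) mice had 5000000 cells of a line named KrasIKKaL put into the trachea. Per the library titles there were 5 TB and 3 control (CON) lung libraries, and 3 TB and 3 CON muscle libraries. The labels say neither what CON mice received nor how long the cells grew. They do not say if each library is its own animal, and p-values therefore rest on a spread between libraries that could be technical.

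Total counts ran from 32476194 to 44169410 per library in muscle and from 47947363 to 61087315 in lung. Lung libraries of the 2 groups differed widely in make-up: all 6 epithelial markers and all 7 proliferation markers rose, with summed epithelial marker levels of 7596 to 12520 TPM in TB and 986 to 1004 TPM in CON lungs. The 7 endothelial markers all fell (summed 84.2 to 105 TPM in TB, 1697 to 1768 TPM in CON lungs), as did the 6 alveolar type 2, the 6 alveolar type 1 and the 6 club and ciliated cell markers and the 7 erythroid markers. The part of these shifts in the lung values below was not tested, and in bulk RNA fewer cells of a type and less RNA per cell cannot be told apart. Muscle libraries carried their defining fast fibre markers at a summed 73270 to 92780 TPM in TB and 67590 to 113400 TPM in CON, with 2 of 9 higher and 0 lower, while 0 of 9 slow fibre markers passed (3 at an unadjusted p under 0.05). TB muscle library 2 correlated slightly better with the CON libraries (mean r 0.956) than with its own group (0.948). Of other cell types' markers in muscle, 5 of 7 fibroblast markers fell, and the 3 neutrophil and 3 alveolar macrophage markers that could be tested rose. Of both the neutrophil and the alveolar macrophage list, 4 of 7 markers had too few reads to be tested. None of 5 erythroid markers passed (all 5 at an unadjusted p under 0.05), with sums of 971 to 10500 TPM in TB and 778 to 916 TPM in CON muscles. Among the remaining lists in muscle, 1 of 9 macrophage and monocyte markers rose, and 1 of 7 endothelial, 1 of 6 heart muscle, 1 of 5 fat cell, 2 of 5 alveolar type 1, 1 of 2 club and ciliated and 2 of 2 T and B cell markers tested fell. Untested were 4 of 6 club and ciliated and 5 of 7 T and B cell markers. A scarce marker can pass the filter on low counts through the group where it is high. No conclusion is therefore drawn from lists with so few tested markers. No alveolar type 2, epithelial or proliferation marker passed in muscle. In lung 7 of 9 heart muscle, 5 of 7 alveolar macrophage, 4 of 7 T and B cell, 3 of 5 fat cell and 2 of 7 fibroblast markers fell, and none of these lists had a higher one. Other lists were split in lung, namely macrophage and monocyte (1 higher, 4 lower of 9), neutrophil (1 higher, 2 lower of 7), fast fibre (2 higher, 3 lower of 5 tested) and slow fibre markers (1 higher, 4 lower of 7 tested). Over all genes tested, 30.4% rose and 29.3% fell in lung, and 8.53% rose and 6.75% fell in muscle. Lung fibroblast markers (28.6% lower) and muscle macrophage and monocyte markers (11.1% higher) lay near those shares. The part of these markers in the values of the 38 genes was not tested either.

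In lung, 22 of the 38 genes rose in TB and 10 fell (adjusted p under 0.05, edgeR's quasi-likelihood test adjusted over all genes tested), and 6 did not pass. Among all 19300 genes tested in lung, 30.4% rose and 29.3% fell, so the genes' 57.9% higher stood above that background and their 26.3% lower close to it. For all 32 the TB and CON libraries did not overlap, as was true of 63.0% of all genes tested. The median log2 change of the 38 was 1.84, against 0.07 over all genes. Most genes tested changed in lung, and the scaling between libraries behind these changes assumes that most do not. In muscle, 37 of the 38 had enough reads to be tested, all but Hk3, and only Pfkfb4 rose and 0 fell, where 8.53% of all 14373 genes tested rose and 6.75% fell. At an unadjusted p under 0.05 there were 15 of 37, against 5126 of all 14373 genes. DESeq2 called 12 of the 37, beside 2093 higher and 1564 lower of all 14373 genes. Limma-trend on TPM called 0, beside 157 higher and 258 lower. Of the 37, 10 had a positive and 27 a negative log2 change (median -0.43, against -0.03 over all genes), and in 16 the 2 groups did not overlap, a share near the 43.1% of all genes. The muscle calls rest on few libraries: leaving out any of the 3 CON libraries left 0 members called, whereas leaving out TB library 2 gave 9. Calls over all genes moved too, to 2447 higher and 2066 lower of 14804 without TB library 2.

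**Figure D1:**
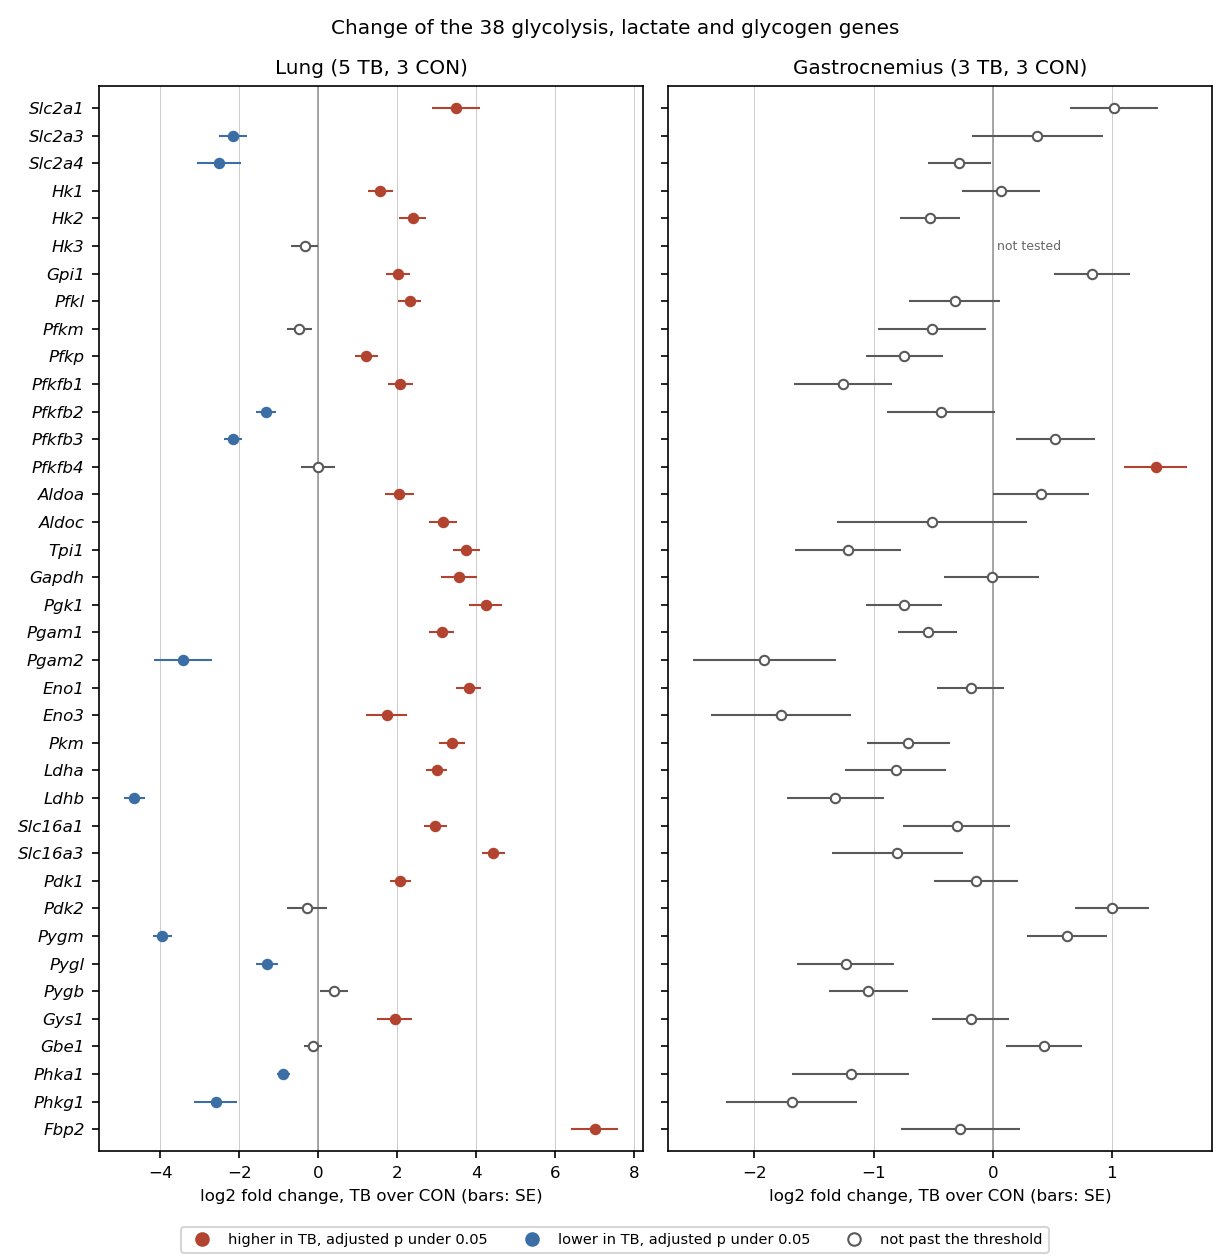
Log2 fold change (TB over CON, x axis) of each of the 38 genes in lung (left) and gastrocnemius (right), by role from top to bottom; points are edgeR estimates, bars their standard errors, and filled points passed an adjusted p of 0.05. Lung changes run from -4.66 for Ldhb to 7.01 for Fbp2, and in muscle only the Pfkfb4 point is filled.

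The tissues' responses were compared directly, as the lung change minus the muscle change in 1 fit of all 14 libraries. This difference was positive for 23 and negative for 5 of the 38 genes, against 16.6% and 19.0% of all 19834 genes tested. The 5 negative ones were Slc2a3, Slc2a4, Pfkfb3, Ldhb and Pygm. Levels below are in CPM, read counts relative to a library's TMM-scaled total, within each tissue, or in TPM, which corrects for transcript length and is used to compare genes; values follow the library numbers, and changes are log2 fold changes of TB over CON with their standard error (SE).

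Among the 3 glucose carriers, Slc2a1 rose in TB lung while Slc2a3 and Slc2a4 fell. Slc2a1 encodes GLUT1, the carrier for basal uptake, and had 187, 304, 195, 450.3 and 968.5 CPM in TB lungs against 36.2, 38.2 and 37.7 CPM in CON lungs. Every TB lung was above every CON lung, and TB library 5 was the highest (3.49, SE 0.61, adjusted p = 0.00103). Slc2a3, the high-affinity carrier GLUT3, fell to 1.83, 1.83, 3.03, 2.82 and 4.18 CPM in TB lungs, against 7.57, 14 and 15.0 CPM in CON lungs (-2.15, SE 0.35, adjusted p = 0.000755). Slc2a4, the insulin-responsive carrier GLUT4 of muscle and fat, had 1.51, 0.953, 0.256, 0.476 and 1.10 CPM in TB lungs and 2.34, 6.18 and 6.17 CPM in CON lungs (-2.51, SE 0.57, adjusted p = 0.00438). CON library 1 was the lowest of its group for both, and it also had the lowest summed level of 9 heart muscle markers, 457 TPM against 1479 and 1442 TPM in the other 2 CON lungs. These markers summed to 107 to 493 TPM in TB lungs, and 7 of the 9 fell. Within the TB lungs Slc2a4 did not follow them. TB library 1 had the lowest sum (107 TPM) and the highest Slc2a4 level (1.51 CPM), and TB library 2 had the highest sum (493 TPM) and 0.953 CPM. The part of the heart muscle markers in the Slc2a4 change was not tested. As a share of the 3 carriers' TPM, Slc2a4 was 0.307 ± 0.312% in TB lungs (SD, n = 5) and 10.6 ± 3.19% in CON lungs (SD, n = 3). The groups did not overlap (exact permutation test, p = 0.0357, the smallest that 5 against 3 allows; adjusted p = 0.0376 over 20 shares).

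In muscle none of the 3 passed. Slc2a1 had 18.0, 6.84 and 15.8 CPM in TB muscles and 6.73, 6.12 and 7.22 CPM in CON muscles, with TB library 2 among the controls (1.02, SE 0.37, adjusted p = 0.0859). Slc2a4, the main carrier there, had 261, 338 and 304 CPM in TB against 408, 371 and 319 CPM in CON muscles (-0.28, SE 0.26, adjusted p = 0.462), and Slc2a3 had 2.27, 12.3 and 6.14 CPM against 6.90, 5.67 and 3.35 CPM. Slc2a4 still made up 94.5 ± 1.09% of the carriers' TPM in TB muscles and 97.2 ± 0.218% in CON muscles (SD, n = 3 each; exact permutation p = 0.1, the smallest that 3 against 3 allows). The lung and muscle changes differed for all 3 genes, by 2.48 for Slc2a1 (adjusted p = 0.0129), -2.55 for Slc2a3 (adjusted p = 0.0123) and -2.24 for Slc2a4 (adjusted p = 0.0134). The Slc2a4 call was lost in edgeR with the replicate number fitted as a block (-2.24, adjusted p = 0.0573).

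Hexokinases phosphorylate glucose and so trap it in the cell. Hk2, the isoform of muscle and many tumours, rose to 159, 147, 95.1, 172 and 280.4 CPM in TB lungs, against 28.3, 35.5 and 33.8 CPM in CON lungs (2.39, SE 0.33, adjusted p = 0.000300). Hk1, the widespread isoform, rose to 144, 147, 213, 209.9 and 374 CPM in TB lungs, against 74.4, 73.6 and 70.7 CPM in CON lungs (1.58, SE 0.32, adjusted p = 0.00259). Hk3, an isoform of white blood cells, had 2.91, 1.51, 2.44, 2.19 and 1.27 CPM in TB and 2.34, 2.64 and 2.87 CPM in CON lungs (adjusted p = 0.406). Hk2 came to 51.4 ± 11.1% of hexokinase TPM in TB lungs and 31.0 ± 5.58% in CON lungs (exact permutation p = 0.0357). The share of Hk1, 47.9 ± 11.1% in TB and 65.5 ± 6.02% in CON lungs, overlapped between the groups (exact permutation p = 0.107) and was the only 1 of 20 lung shares that did not pass.

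In muscle Hk2 had 104, 133 and 139.9 CPM in TB and 179, 195 and 169 CPM in CON libraries, without overlap but short of the threshold (-0.53, SE 0.25, adjusted p = 0.167). Hk1 had 6.92, 6.54 and 10.3 CPM in TB and 5.22, 8.00 and 9.39 CPM in CON muscles. Hk3 stayed under 0.4 CPM in every muscle library and was not tested. The changes of Hk2 and Hk1 differed between lung and muscle by 2.91 (adjusted p = 0.00012) and 1.5 (adjusted p = 0.0169), the call for Hk1 being lost with limma-trend on TPM (0.92, adjusted p = 0.0530).

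Of the 6 upper glycolysis genes, 5 rose in lung. Gpi1 encodes the isomerase that makes fructose 6-phosphate, and it had 683, 523, 617, 1035 and 1148 CPM in TB lungs against 204, 199.8 and 185 CPM in CON lungs (2.03, SE 0.30, adjusted p = 0.000407). Phosphofructokinase, the committed step, has a liver, a muscle and a platelet form. The liver form Pfkl rose to 185, 152, 160.5, 312 and 292 CPM in TB lungs, against 46.4, 42.2 and 43.8 CPM in CON lungs (2.32, SE 0.29, adjusted p = 0.000171). The platelet form Pfkp rose to 103, 68.8, 91.5, 136 and 179.7 CPM in TB lungs, against 49.2, 48.4 and 51.5 CPM in CON lungs (1.22, SE 0.29, adjusted p = 0.00616). The muscle form Pfkm had 15.5, 6.63, 21.0, 13.5 and 12.8 CPM in TB and 17.3, 20.1 and 20.5 CPM in CON lungs and did not pass (-0.47, SE 0.32, adjusted p = 0.222). Within the step, Pfkl went up to 59.3 ± 3.96% of TPM in TB lungs against 37.5 ± 3.22% in CON lungs, and Pfkm down to 5.07 ± 2.58% against 19.4 ± 2.48% (exact permutation p = 0.0357 each).

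Aldolase cleaves the phosphorylated hexose into a pair of triose phosphates. Aldoa, the muscle and general form, rose to 1148, 1062, 1204, 1700 and 2927 CPM in TB lungs, against 384, 392 and 381 CPM in CON lungs (2.06, SE 0.37, adjusted p = 0.00128). Aldoc, the brain form, rose to 23.1, 28.5, 51.0, 53.2 and 53.6 CPM in TB lungs, against 4.25, 5.15 and 4.63 CPM in CON lungs (3.16, SE 0.35, adjusted p = 8.3e-05). Aldoa remained nearly all of the step, with 97.4 ± 0.836% of TPM in TB and 99.0 ± 0.119% in CON lungs.

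None of the 6 passed in muscle. Gpi1 had 1981, 1605 and 2808 CPM in TB and 1088, 1216 and 1292 CPM in CON muscles, so the groups did not overlap (0.83, SE 0.32, adjusted p = 0.0999). Aldoa was the most abundant of these genes there, with 12960, 21100 and 29780 CPM in TB and 13480, 16610 and 18060 CPM in CON muscles (adjusted p = 0.489). Pfkm, which held 98.7% of phosphofructokinase TPM in TB and 98.8% in CON muscles, had 400.4, 1257 and 1245 CPM in TB and 1677, 1450 and 1005 CPM in CON libraries. TB library 1 was thus well under the rest for Pfkm. Pfkp had 4.22, 5.97 and 8.38 CPM in TB and 9.93, 8.78 and 12.3 CPM in CON muscles (-0.74, SE 0.32, adjusted p = 0.134). Pfkl had 3.16, 8.80 and 5.02 CPM in TB and 6.36, 6.86 and 7.95 CPM in CON muscles. Aldoc had 0.3448, 0.6175 and 0.3474 CPM in TB and 0.4084, 1.379 and 0.07603 CPM in CON muscles. Both genes overlapped between the groups. The lung change exceeded the muscle change for Gpi1 (by 1.20, adjusted p = 0.0324), Pfkl (2.61), Pfkp (1.96), Aldoa (1.65) and Aldoc (3.67), and for Pfkm the difference was 0.04 (SE 0.58). The differences for Gpi1 and Aldoa depended on the method and on single libraries. Both lost their call with limma-trend on TPM (Gpi1 0.0768, adjusted p = 0.905; Aldoa 0.83, adjusted p = 0.116). Both also lost it without any 1 of TB muscle library 1, CON muscle libraries 2 and 3 and the 3 CON lung libraries, and Gpi1 without TB muscle library 2 too. The adjusted p was then 0.0597 to 0.0780 for Gpi1 and 0.0578 to 0.0626 for Aldoa.

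The 4 Pfkfb genes encode enzymes that make and break fructose 2,6-bisphosphate, the activator of phosphofructokinase, and they moved apart from one another. In TB lung Pfkfb3, an isoform with high kinase activity, fell to 18.4, 19.4, 15.8, 33.1 and 23.7 CPM against 102, 95.8 and 96.9 CPM in CON lungs (-2.15, SE 0.23, adjusted p = 6.7e-05). Pfkfb2, the heart form, fell to 16.5, 9.19, 15.3, 23.3 and 15.5 CPM in TB lungs, against 39.7, 38.6 and 40.4 CPM in CON lungs (-1.31, SE 0.26, adjusted p = 0.00197). Pfkfb1, the liver and muscle form, rose to 2.49, 4.19, 4.34, 3.54 and 4.75 CPM in TB lungs, against 0.927, 0.892 and 0.908 CPM in CON lungs (2.08, SE 0.32, adjusted p = 0.000485). Pfkfb4 had 23.0, 13.0, 31.4, 26.3 and 66.2 CPM in TB lungs and 31.4, 32.2 and 33.0 CPM in CON lungs, a wide spread around the same mean (-0.01, SE 0.44, adjusted p = 0.987). The summed TPM of the 4 was lower in TB lungs, 28.0 ± 8.57 against 73.6 ± 3.85, and their order changed. Pfkfb4 led in TB lungs with 44.7 ± 11.6% (24.0 ± 0.799% in CON) and Pfkfb3 in CON lungs with 46.4 ± 0.712% (21.0 ± 6.56% in TB; exact permutation p = 0.0357 each).

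Pfkfb4 was the gene that rose in muscle. It had 39.3, 26.8 and 34.9 CPM in TB muscles against 14.2, 13.5 and 11.4 CPM in CON muscles, a 2.58-fold rise with all 3 TB libraries above all 3 controls (1.37, SE 0.26, adjusted p = 0.0169). The call was lost without any 1 of the CON libraries, where the adjusted p lay between 0.0676 and 0.0922, and by limma-trend on TPM (adjusted p = 0.144). Pfkfb1 had 5.37, 12.1 and 4.17 CPM in TB and 21.1, 16.6 and 14.1 CPM in CON muscles (-1.26, SE 0.41, adjusted p = 0.0659), and its share of the step was 8.12 ± 6.87% in TB and 21.6 ± 1.34% in CON muscles. Pfkfb3, the largest share in both groups, had 275, 126 and 206 CPM in TB and 168, 127 and 128 CPM in CON muscles (adjusted p = 0.275). Pfkfb2 had 1.74, 1.77 and 0.695 CPM in TB and 2.41, 2.10 and 1.22 CPM in CON muscles. The change differed between lung and muscle for Pfkfb1 (3.32, adjusted p = 0.000308) and Pfkfb3 (-2.67, adjusted p = 0.000169); for Pfkfb4 the difference was -1.37 and did not pass (SE 0.55, adjusted p = 0.0639).

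**Figure D2:**
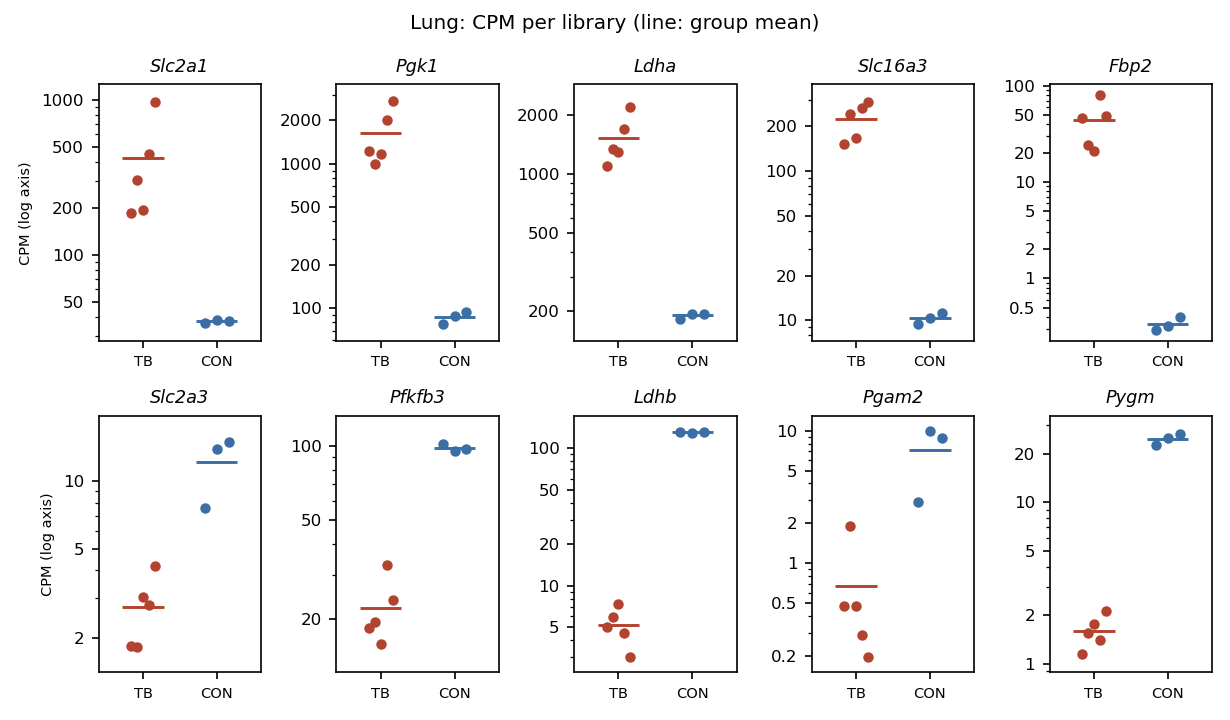
Level in each lung library in CPM (log axis) of 10 of the genes, TB left and CON right in each panel, with a line at the group mean. The 5 genes in the upper row lie above all CON lungs in every TB lung, and the 5 in the lower row below them; Fbp2 has 20.8 to 78.9 CPM in TB and 0.293 to 0.40 CPM in CON lungs.

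Lower glycolysis, from triose phosphate to pyruvate, had 7 of its 8 genes higher in TB lung, and the other, Pgam2, fell. Tpi1 encodes the isomerase that interconverts the triose phosphates, and rose to 721, 850.4, 722, 1141 and 1602 CPM in TB lungs, against 69.6, 76.6 and 77.2 CPM in CON lungs (3.76, SE 0.34, adjusted p = 2.8e-05). Gapdh, the dehydrogenase often used as a loading control, rose to 3572, 5051, 4808, 6274 and 12740 CPM in TB lungs, against 512, 574 and 554 CPM in CON lungs (3.57, SE 0.47, adjusted p = 0.000205). Pgk1, the first of the ATP-forming enzymes, rose to 1233, 999.7, 1178, 2020 and 2732 CPM in TB lungs, against 77.2, 88.0 and 93.9 CPM in CON lungs (4.24, SE 0.42, adjusted p = 4.3e-05). That is 18.9-fold, the largest rise among the glycolytic enzymes proper, and TB library 5 was again the highest, as it was for 20 of the 22 genes that rose.

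Phosphoglycerate mutase and enolase each have a general and a muscle isozyme. Pgam1, the general mutase, rose to 488, 609.7, 470.5, 658 and 1103 CPM in TB lungs, against 74.3, 76.1 and 78.5 CPM in CON lungs (3.12, SE 0.33, adjusted p = 5.9e-05). Pgam2, the muscle mutase, fell to 0.475, 1.93, 0.477, 0.290 and 0.196 CPM in TB lungs, against 2.90, 9.93 and 8.75 CPM in CON lungs (-3.41, SE 0.74, adjusted p = 0.00347). Its lowest CON library, number 1, and its highest TB library, number 2, were also the lowest CON and the highest TB library for the heart muscle markers given above, 457 and 493 TPM. The other TB lungs did not follow that order. TB library 5 had the lowest Pgam2 level (0.196 CPM) at 379 TPM of these markers, and TB library 1 had 0.475 CPM at 107 TPM. The part of the heart muscle markers was not tested. Eno1, the general enolase, rose to 978, 1549, 1290, 1487 and 2300 CPM in TB lungs, against 106, 108 and 109.7 CPM in CON lungs (3.82, SE 0.31, adjusted p = 1.8e-05). Eno3, the muscle enolase, rose as well, though less and with more spread, to 20.5, 59.6, 67.8, 20.4 and 70.9 CPM in TB lungs, against 8.84, 16.2 and 18.0 CPM in CON lungs (1.74, SE 0.51, adjusted p = 0.0164). The call was lost without CON library 1 (adjusted p = 0.0656) and in limma-trend on TPM (adjusted p = 0.0851). Both muscle isozymes lost share: Pgam2 was 0.28 ± 0.284% of mutase TPM in TB and 18.2 ± 8.32% in CON lungs, and Eno3 was 4.38 ± 2.09% of enolase TPM in TB and 16.1 ± 4.5% in CON lungs (exact permutation p = 0.0357 each). Pkm, pyruvate kinase of the muscle type with its alternative M2 form, which these gene-level values do not separate, rose to 1954, 2902, 2849, 3485 and 4887 CPM in TB lungs, against 312, 302 and 299 CPM in CON lungs (3.40, SE 0.33, adjusted p = 4.1e-05).

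In muscle all 8 lower glycolysis genes had a negative log2 change (median -0.73) and none passed. The largest were the muscle isozymes. Pgam2 had 230.1, 1605 and 1033 CPM in TB muscles and 2966, 3675 and 4187 CPM in CON muscles (-1.92, SE 0.60, adjusted p = 0.0588). Eno3 had 332, 1831 and 2038 CPM in TB and 4293, 4755 and 5355 CPM in CON muscles (-1.78, SE 0.59, adjusted p = 0.0681). Tpi1 had 168, 568 and 536 CPM in TB and 1084, 1027 and 843 CPM in CON muscles (-1.22, SE 0.44, adjusted p = 0.0878). In each of these 3 genes the groups did not overlap and TB library 1 was far under the other 2, as it was the lowest TB library for 20 of the 27 members with a negative change. Without TB library 1, Pgam2 (-1.44) and Eno3 (-1.29) were smaller in size but passed, and DESeq2 called Pgam2, Eno3 and Tpi1 lower with all libraries.

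Pkm had 1218, 1945 and 2532 CPM in TB and 3073, 3047 and 3181 CPM in CON muscles (adjusted p = 0.173), and Pgam1 had 8.72, 9.52 and 11.3 CPM in TB and 14.1, 13.9 and 15.1 CPM in CON muscles (adjusted p = 0.144), neither with overlap. Pgk1 had 170.1, 302 and 224 CPM in TB and 476, 398 and 293 CPM in CON muscles (adjusted p = 0.130). Gapdh spread as widely within groups as between them, with 10620, 14590 and 21140 CPM in TB and 11810, 15010 and 19810 CPM in CON muscles (-0.01, SE 0.40, adjusted p = 0.990), and its sign turned positive under DESeq2's scaling (0.02). Eno1 had 56.2, 65.7 and 94.4 CPM in TB and 69.2, 84.0 and 92.9 CPM in CON muscles. The lung change exceeded the muscle change by 4.98 for Pgk1 (adjusted p = 1.1e-05), 4.96 for Tpi1, 4.11 for Pkm, 4.0 for Eno1, 3.67 for Pgam1, 3.57 for Gapdh and 3.51 for Eno3, all past the threshold. Pgam2 was the exception, with lower levels in TB of both tissues (difference -1.52, SE 0.99, adjusted p = 0.253; -2.39, adjusted p = 0.0351 without TB lung library 2).

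Near copies were searched by symbol only: pseudogenes and related sequences named after a member, second IDs of a member, and Eno1b. Those found took little of the signal. Eno1b reached 3.09% of Eno1's TPM, Pgam1-ps2 2.7% of Pgam1's and Pgk1-rs7 1.51% of Pgk1's in any library, so the splitting of shared reads between them leaves a small uncertainty in those values. Copies under other symbols were not searched, and reads shared with them were not assessed.

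Of the lactate genes, 3 rose in TB lung and Ldhb fell. Lactate dehydrogenase is a tetramer of A subunits from Ldha, which favour lactate formation, and B subunits from Ldhb, which favour its use. In TB lungs Ldha rose to 1094, 1337, 1289, 1702 and 2198 CPM, against 184, 195 and 193 CPM in CON lungs (3.0, SE 0.28, adjusted p = 3.2e-05). Ldhb fell to 4.99, 5.89, 7.39, 4.49 and 3.03 CPM in TB lungs, against 132, 129 and 131 CPM in CON lungs, 25.2-fold lower (-4.66, SE 0.26, adjusted p = 2.8e-06). Ldha thus made up 98.8, 98.5, 98.7, 99.4 and 99.7% of the pair's TPM in TB lungs, against 45.7, 46.0 and 44.2% in CON lungs. The spread within each group was under 1 percentage point (SD 0.499 in TB, 0.927 in CON; exact permutation p = 0.0357). Ldhb had the largest fall of the 38 genes.

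Slc16a1 and Slc16a3 encode the monocarboxylate carriers MCT1 and MCT4, which move lactate across the membrane; MCT4 is known mainly for export from glycolytic cells. Slc16a3 rose to 153, 241, 168, 265 and 294 CPM in TB lungs, against 9.49, 10.4 and 11.2 CPM in CON lungs, a 21.6-fold rise (4.43, SE 0.29, adjusted p = 5.4e-06). Slc16a1 rose less, to 176, 150.5, 170.0, 86.3 and 208 CPM in TB lungs, against 19.9, 20 and 20.6 CPM in CON lungs (2.97, SE 0.29, adjusted p = 4.0e-05). Of the TPM of the 2 carriers, Slc16a1 held 25.6 ± 8.92% in TB and 50.6 ± 1.85% in CON lungs (exact permutation p = 0.0357). Bsg, the chaperone both carriers need at the membrane, was among the 6 of 14 other transporter genes that rose in lung. Another 6 of the 14 fell, among them Emb, also a carrier chaperone.

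In muscle the 4 lactate genes all had a negative change and none passed. Ldha had 505, 1404 and 1586 CPM in TB and 2171, 1971 and 1997 CPM in CON muscles (-0.81, SE 0.42, adjusted p = 0.198). Ldhb had 95.5, 88.2 and 60.5 CPM in TB and 283, 233 and 94.2 CPM in CON muscles, so CON library 3 lay within the TB range (-1.32, SE 0.41, adjusted p = 0.0579). That library also had the lowest summed slow fibre markers, 938 TPM against 5491 and 3357 TPM in the other CON muscles and 2289, 2557 and 1571 TPM in TB muscles; the part of fibre type was not tested. Slc16a3 had 42.9, 270.3 and 224 CPM in TB and 340.4, 325 and 270.1 CPM in CON muscles (adjusted p = 0.318), and Slc16a1 had 35.2, 15.0 and 13.4 CPM in TB and 35.0, 28.9 and 14.5 CPM in CON muscles (adjusted p = 0.651). The Slc16a1 share was 28.6% in TB library 1 and 2.71% and 2.88% in the other TB muscles, against 2.58 to 4.89% in CON. The tissues' changes differed by 5.22 for Slc16a3 (adjusted p = 5.8e-05), 3.81 for Ldha (adjusted p = 7.7e-05), 3.29 for Slc16a1 (adjusted p = 0.000471) and -3.33 for Ldhb (adjusted p = 0.000222).

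**Figure D3:**
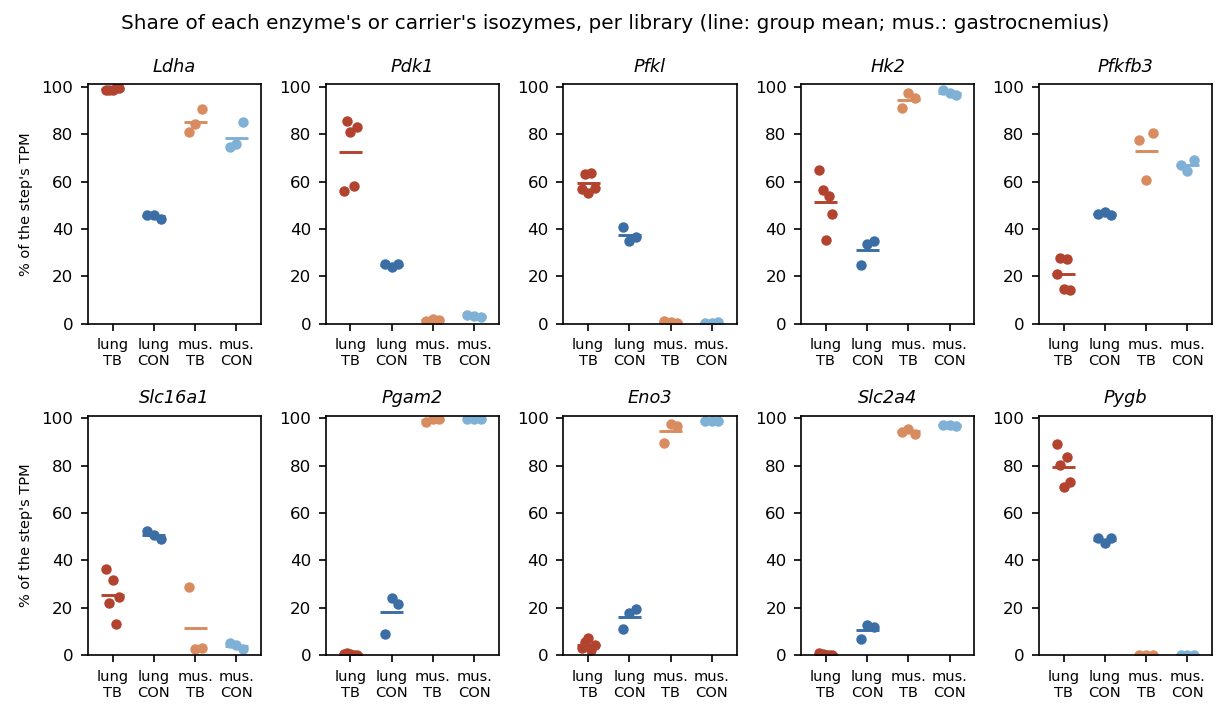
Share of 10 isozymes or carriers in the summed TPM of their step (percent, y axis) in each library of lung TB, lung CON, gastrocnemius (mus.) TB and gastrocnemius CON, with lines at group means. Ldha holds 98.5 to 99.7% in TB and 44.2 to 46.0% in CON lungs, and Pgam2, Eno3 and Slc2a4 hold most of their step in muscle only.

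Pyruvate dehydrogenase kinases switch off the entry of pyruvate into the mitochondrial citrate cycle. Pdk1 rose to 58.1, 88.8, 83.7, 109.6 and 130.5 CPM in TB lungs, against 20.1, 23.1 and 23.6 CPM in CON lungs (2.08, SE 0.26, adjusted p = 0.000167). Pdk2 had 27.2, 11.6, 13.7, 64.2 and 20.3 CPM in TB lungs and 32.1, 34.3 and 32.9 CPM in CON lungs, with TB library 4 alone above the controls (-0.27, SE 0.51, adjusted p = 0.664); without that library it passed as lower (-0.84, adjusted p = 0.0389). Pdk1 came to 72.7 ± 14.4% of the pair's TPM in TB and 24.7 ± 0.671% in CON lungs (exact permutation p = 0.0357). In muscle Pdk2 was the main kinase of the pair, with 698, 413 and 483 CPM in TB and 293, 296 and 208 CPM in CON libraries, no overlap and no call (1.00, SE 0.31, adjusted p = 0.0582). Pdk1 had 19.2, 20.2 and 12.2 CPM in TB and 24.1, 21.7 and 11 CPM in CON muscles, and its share was 1.46 ± 0.446% in TB and 3.06 ± 0.467% in CON muscles. The change of Pdk1 differed between lung and muscle by 2.21 (adjusted p = 0.00197); that of Pdk2 by -1.27 (adjusted p = 0.143).

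Of the 7 glycogen genes, 4 fell and only Gys1 rose in lung. Glycogen phosphorylase releases glucose units, and its muscle form Pygm fell to 1.15, 1.55, 1.77, 1.41 and 2.13 CPM in TB lungs, against 22.6, 25.1 and 26.4 CPM in CON lungs, 15.4-fold lower (-3.95, SE 0.24, adjusted p = 3.8e-06). The liver form Pygl fell to 8.61, 16.0, 13.3, 15.7 and 7.27 CPM in TB lungs, against 28.8, 29.3 and 31.2 CPM in CON lungs (-1.29, SE 0.28, adjusted p = 0.00327). The brain form Pygb had 121, 111, 55.1, 124 and 43.1 CPM in TB and 68.6, 67.5 and 70.6 CPM in CON lungs, with TB libraries on both sides of the controls (adjusted p = 0.352). Pygb nevertheless led the step, with 79.4 ± 7.43% of phosphorylase TPM in TB and 48.7 ± 1.14% in CON lungs (exact permutation p = 0.0357).

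Phosphorylase kinase, which activates phosphorylase, is represented by Phka1, its muscle regulatory subunit, and Phkg1, its muscle catalytic subunit. Phka1 fell to 12.4, 14.9, 15.1, 12.5 and 16.7 CPM in TB lungs, against 24.3, 27.6 and 27.5 CPM in CON lungs (-0.89, SE 0.16, adjusted p = 0.00152). Phkg1, scarce in every lung library, fell to 0.458, 0.337, 0.119, 0.0828 and 0.220 CPM in TB lungs, against 0.960, 1.83 and 1.69 CPM in CON lungs (-2.60, SE 0.54, adjusted p = 0.00279), and CON library 1 was again the lowest control. Gys1, glycogen synthase of muscle and most tissues, rose to 45.5, 48.0, 39.1, 93.8 and 139 CPM in TB lungs, against 19.6, 18.2 and 19.1 CPM in CON lungs (1.95, SE 0.44, adjusted p = 0.00461). Gbe1, the branching enzyme, had 13.8, 20.1, 19.6, 16.5 and 27.4 CPM in TB and 21.4, 21.7 and 20.5 CPM in CON lungs (adjusted p = 0.659). Synthase was thus higher and the muscle phosphorylase with its kinase subunits lower in TB lung.

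In muscle Pygm had 4465, 5410 and 7723 CPM in TB and 3774, 3876 and 3777 CPM in CON libraries, so every TB muscle lay above the closely grouped controls, without a call (0.62, SE 0.33, adjusted p = 0.207). Phkg1 had 29.4, 186 and 112 CPM in TB and 355, 347 and 353 CPM in CON muscles (-1.69, SE 0.55, adjusted p = 0.0652), and Phka1 had 42.3, 164 and 58.0 CPM in TB and 253, 202 and 149 CPM in CON muscles (-1.19, SE 0.49, adjusted p = 0.119). Both kinase subunits were lowest in TB library 1 and nearest to the controls in TB library 2. Pygl and Pygb were scarce and lower without overlap, Pygl at 0.690, 0.978 and 0.579 CPM in TB and 1.38, 1.65 and 2.32 CPM in CON muscles (adjusted p = 0.0678). Pygb was at 1.70, 2.55 and 2.86 CPM in TB and 3.83, 4.80 and 6.01 CPM in CON muscles (adjusted p = 0.0612). Gys1 (172, 178 and 120.0 CPM in TB, 224, 198 and 113 CPM in CON) and Gbe1 (46.8, 43.1 and 31.1 CPM in TB, 37.5, 33.3 and 19.1 CPM in CON) overlapped between the groups. The tissues' changes differed by -4.57 for Pygm (adjusted p = 1.9e-06), 2.12 for Gys1 (adjusted p = 0.0113) and 1.43 for Pygb (adjusted p = 0.0350), whereas Pygl, Gbe1, Phka1 and Phkg1 did not pass. With limma-trend on TPM the Gys1 call was lost (1.13, adjusted p = 0.206) and Pygb turned to -0.10 (adjusted p = 0.871). The Pygb call was also lost without any 1 of CON muscle libraries 2 and 3, TB muscle library 1, the 3 CON lung libraries and TB lung libraries 1 and 4 (adjusted p 0.0533 to 0.0925).

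**Figure D4:**
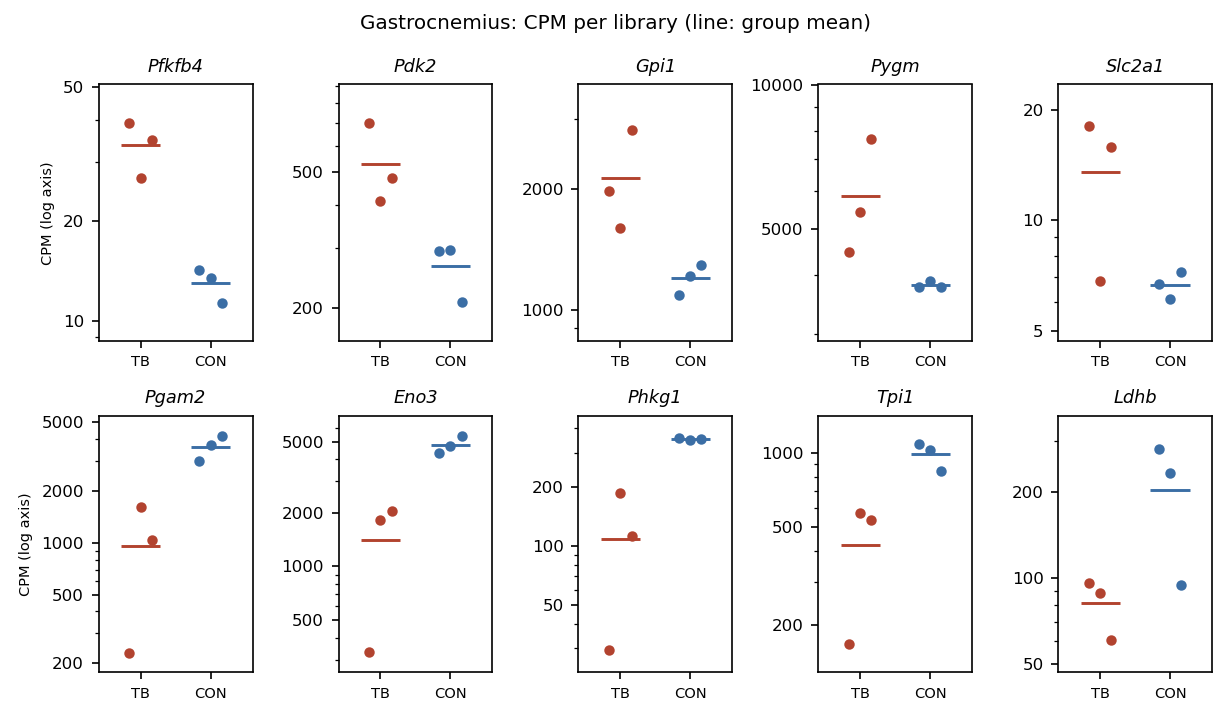
Level in each gastrocnemius library in CPM (log axis) of 10 of the genes, TB left and CON right in each panel, with a line at the group mean. Pfkfb4 is the only gene shown that passed; in Pgam2, Eno3, Phkg1 and Tpi1 the lowest point is TB library 1, and in Slc2a1 and Ldhb the groups overlap.

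Fbp2 encodes the muscle form of fructose-bisphosphatase, which runs the phosphofructokinase step backwards, and it had the largest change of all 38. It had 45.6, 23.9, 20.8, 78.9 and 48.6 CPM in TB lungs against 0.293, 0.320 and 0.40 CPM in CON lungs, a 128-fold difference (7.01, SE 0.59, adjusted p = 2.1e-05). In muscle it had 8.60, 19.0 and 44.4 CPM in TB and 27.7, 27.5 and 31.6 CPM in CON libraries, on both sides of the controls (-0.27, SE 0.50, adjusted p = 0.716). The changes differed by 7.28 (adjusted p = 1.3e-05).

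Summed over all 38 genes, the share of all TPM was 1.52 ± 0.559% in TB lungs (SD, n = 5) and 0.275 ± 0.00390% in CON lungs (SD, n = 3), and 3.99 ± 0.469% in TB muscles and 4.22 ± 0.621% in CON muscles (SD, n = 3 each). In TB lungs the steps with the largest ratio to CON lungs in summed TPM were phosphoglycerate kinase (13.7-fold), the monocarboxylate carriers (159 against 13.6 TPM), triosephosphate isomerase (9.79-fold), enolase (8.92-fold) and glyceraldehyde 3-phosphate dehydrogenase (8.52-fold). Phosphofructokinase (2.17-fold) and the pyruvate dehydrogenase kinases (1.76-fold) changed less, and the Pfkfb enzymes (0.381-fold), the phosphorylases (0.567-fold) and the branching enzyme (0.824-fold) were lower. In muscle 6 of the step totals did not overlap between the groups. The same was true of 43.1% of all single genes tested in muscle, on the CPM scale. Lower in TB were mutase (1126 ± 910 TPM in TB, 3939 ± 665 TPM in CON), enolase (828 ± 463 TPM in TB, 2742 ± 640 TPM in CON) and glyceraldehyde 3-phosphate dehydrogenase (17770 ± 2622 TPM in TB, 20390 ± 745 TPM in CON). Higher in TB were the phosphorylases (2612 ± 59.9 TPM in TB, 1427 ± 648 TPM in CON), aldolase (13420 ± 1291 TPM in TB, 8829 ± 1796 TPM in CON) and the isomerase Gpi1 (1503 ± 607 TPM in TB, 572 ± 169 TPM in CON). All other totals overlapped. They were those of the glucose carriers, hexokinases, phosphofructokinases, Pfkfb enzymes, lactate dehydrogenases, monocarboxylate carriers and pyruvate dehydrogenase kinases. The rest were triosephosphate isomerase, phosphoglycerate kinase, pyruvate kinase, glycogen synthase and the branching enzyme. None of these totals was tested, and on the CPM scale above Gapdh and Aldoa overlapped between the groups. Mitochondrial transcripts made up 17.6 to 24.0% of counts in TB and 16.2 to 34.1% in CON muscles, and their part in the TPM was not tested.

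**Figure D5:**
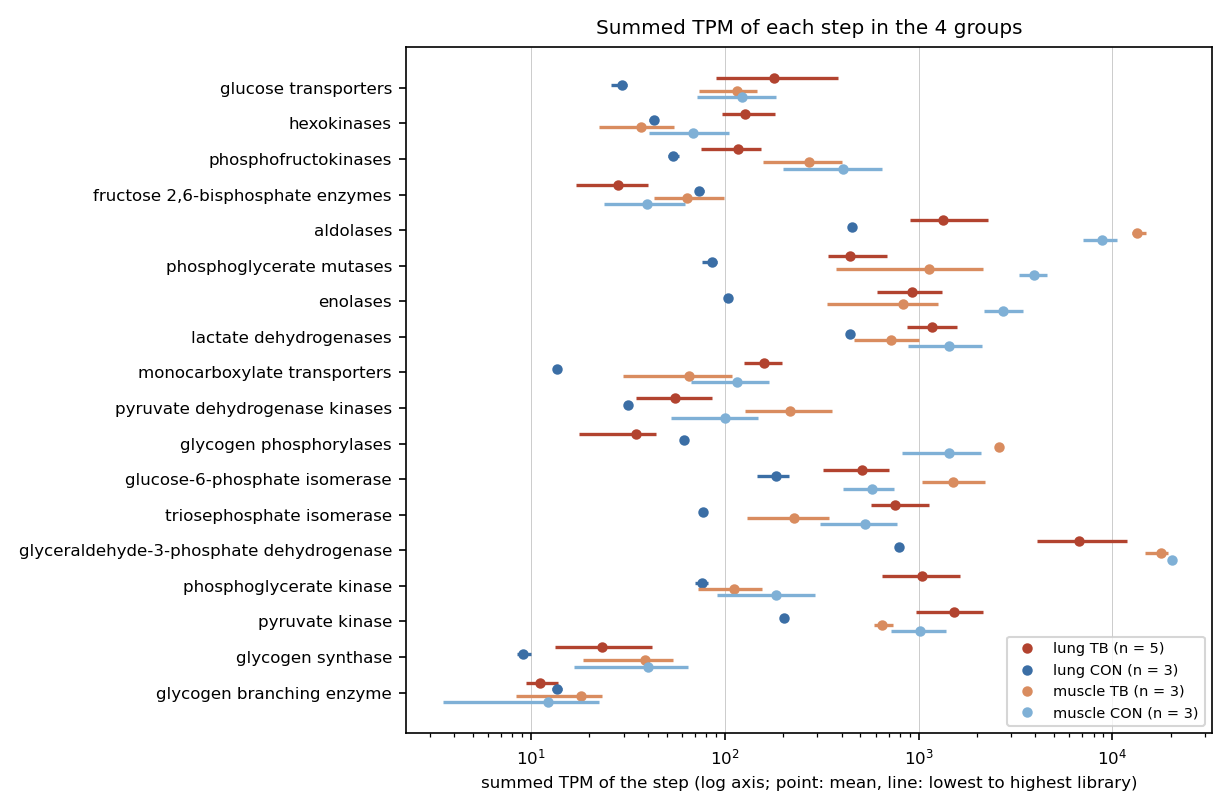
Summed TPM of each step (log axis) in lung TB, lung CON, muscle TB and muscle CON; points are group means and lines run from the lowest to the highest library. Phosphoglycerate kinase has 1047 TPM in TB and 76.5 TPM in CON lungs, and glyceraldehyde 3-phosphate dehydrogenase and aldolase are the highest steps in muscle.

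Without tumour, lung and muscle already used these genes differently. Comparing CON lung with CON muscle in the fit of all 14 libraries, 8 of the 38 passed as higher in lung (37.9% of all genes tested) and 26 as lower (24.6%). The 8 were Hk1, Hk3, Pfkl, Pfkp, Pfkfb2, Pgam1, Pygl and Pygb, and the largest negative differences were those of Pgam2 (-10.46, SE 1.09), Eno3 (-9.88, SE 0.88) and Phkg1 (-9.38, SE 0.77). Most genes tested differed between these tissues, and the scaling assumes that most do not. The direction depended on the scale for some genes. Eno1 (-1.10) and Pdk1 (-1.28) were called lower in CON lung. Their mean TPM was higher there, 87.2 against 33.2 for Eno1 and 7.78 against 3.22 for Pdk1. Pgam2 was lower on both scales (16.1 against 3932 TPM). Over all genes, limma-trend on TPM called 14899 higher and 1243 lower in CON lung, against 7516 and 4881 with edgeR. In TB lung the summed TPM of lactate dehydrogenase (1177 ± 271), the carriers Slc16a1 and Slc16a3 (159 ± 26.9), phosphoglycerate kinase (1047 ± 409) and pyruvate kinase (1521 ± 432) were above those of TB muscle (716 ± 273, 65.2 ± 39.9, 112 ± 41.2 and 646 ± 81.2), as differences of level that were not tested.

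Other genes of the same pathways, listed by function, were read from the same fits, and their counts stand against the 30.4% higher and 29.3% lower of all genes tested in lung. The shares of other glycolysis enzymes (33.3% higher, 26.7% lower) and of pyruvate entry genes (23.1% higher, 30.8% lower) lay near that background. Of 15 other glycolysis enzymes tested in lung, 5 rose and 4 fell: Pklr, the liver and red cell pyruvate kinase, rose most (7.73, SE 0.46; 48.8 ± 15.3 CPM in TB, 0.229 ± 0.0786 CPM in CON). Also higher were Gpd2, the mitochondrial glycerol phosphate dehydrogenase (1.61), and Pgam5, a mitochondrial phosphatase (1.6). Eno2, the neuronal enolase, fell (-2.25). Pentose phosphate genes had 4 of 8 higher and 0 lower, namely Tkt (2.03, SE 0.20), Pgls (1.98, SE 0.20), G6pdx (1.37, SE 0.30) and Pgd (0.74, SE 0.18), which make NADPH and ribose from glucose. Among 20 other glycogen genes 5 rose and 8 fell, the smallest p belonging to Nhlrc1 (-5.17), a ubiquitin ligase that degrades glycogen-targeting proteins, Ppp1r3a (-4.33), the muscle glycogen-targeting subunit of protein phosphatase, Stbd1 (-2.87) and Ppp1r3d (-2.29). Pyruvate entry genes had 3 of 13 higher and 4 lower. Pdk4, the kinase induced by fasting, fell to 1.20 ± 0.507 CPM in TB lungs against 66.3 ± 3.71 CPM in CON lungs (-5.78, SE 0.37, adjusted p = 5.0e-06). Pdha1 (0.82), a subunit of the dehydrogenase it inhibits, and Dld (0.51) rose, while Pdp1 (-1.10), the opposing phosphatase, fell.

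Other hexose and monocarboxylate transporter genes were split, 6 higher and 6 lower of 14, with the smallest p for Slc2a12 (-4.49), Slc2a10 (-2.78), Emb (-3.06), a carrier chaperone, and Slc16a6 (2.42). Of 16 genes of the hypoxia factor and its other targets 9 rose and 5 fell in lung. Egln3, an oxygen-sensing prolyl hydroxylase, rose to 142 ± 89.1 CPM in TB lungs against 1.12 ± 0.0802 CPM in CON lungs (6.99, SE 0.78). Ankrd37 (3.74) and Ndrg1 (3.34) rose too, and Epas1, a hypoxia factor subunit known for high levels in endothelium, fell (-4.81, SE 0.35) beside the 7 endothelial markers. Insulin and glucose sensing genes had 3 of 22 higher and 11 lower, with Tbc1d4 (-2.0), Prkaa2 (-5.78) and Prkag3 (-6.32) among those with the smallest p.

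In muscle, where 8.53% of all genes tested rose and 6.75% fell, the counts in these lists were small. The pyruvate entry genes, with 7.69% higher and 7.69% lower, lay near that background. Shares higher were above it for insulin and glucose sensing genes (27.3%), hypoxia factor genes (18.8%), other glycogen genes (15.8%) and pentose phosphate genes (12.5%). Transporter genes had 12.5% lower and 0% higher. Of 19 other glycogen genes 3 rose and 0 fell. Gaa, the lysosomal glucosidase that digests glycogen, averaged 526 ± 264 CPM in TB and 105 ± 14.5 CPM in CON muscles (2.33, SE 0.39, adjusted p = 0.0118). The others were Gyg, glycogenin, the primer of glycogen (1.72, SE 0.34, adjusted p = 0.0170), and Gsk3b, a kinase that inhibits glycogen synthase (1.28, SE 0.33, adjusted p = 0.0369). Pdk4 rose to 400 ± 188 CPM in TB muscles, against 107 ± 56.5 CPM in CON muscles (1.90, SE 0.53, adjusted p = 0.0438), opposite in sign to its change in lung, and Pdp1 fell (-1.61, SE 0.43, adjusted p = 0.0391), the 2 calls among 13 pyruvate entry genes. Insulin and glucose sensing genes had 6 of 22 higher and 1 lower, led by Foxo1 (2.47, SE 0.32), a transcription factor active in fasting, Akt1 (2.60, SE 0.47), Myc (3.33, SE 0.60) and Foxo3 (1.61, SE 0.32). Adm, Bnip3 and Egln3 rose among 16 hypoxia factor genes (3.10, 2.25 and 2.82), H6pd among 8 pentose phosphate genes (1.57) and Slc16a6 fell among 8 transporters (-1.46). None of 11 other glycolysis enzymes passed, with 5 at an unadjusted p under 0.05, against 5126 of all 14373 genes.

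Promoter sequence of the genes was searched for the pentamer known as the core of hypoxia factor binding sites. Windows of 250 bases before each transcription start, from RefSeq on mouse build GRCm38.p6, were found for 36 of the 38 genes (55 starts; Slc2a3 and Slc2a4 were not among them). The motif was taken as ACGTG or GCGTG on either strand; CACGTG, the E-box bound by Myc and its relatives, contains ACGTG on both strands and so counts as a pair of overlapping matches. At least 1 match was found in 40 of 55 windows (72.7%), against 12679 of all 32851 mouse windows (38.6%), and in any window of 30 of the 36 genes (83.3%), against 41.5% of 27025 genes; base composition was not matched. Genes that rose and genes that fell in lung both carried it, 19 of 22 and 6 of 8. A match describes letters only, not a bound site. Windows of genes named above are shown 5′ to 3′ on the gene's strand, with matches in capitals: Pgk1, Slc16a3 and Fbp2 as the steepest rises in their roles, and Ldha with Ldhb as the pair that exchanged. They lie at chrX:106186850-106187099 (plus strand), chr11:120948817-120949066 (plus), chr13:62858401-62858650 (minus), chr7:46845554-46845803 (plus, the first of 2 starts listed) and chr6:142507958-142508207 (minus).
Pgk1: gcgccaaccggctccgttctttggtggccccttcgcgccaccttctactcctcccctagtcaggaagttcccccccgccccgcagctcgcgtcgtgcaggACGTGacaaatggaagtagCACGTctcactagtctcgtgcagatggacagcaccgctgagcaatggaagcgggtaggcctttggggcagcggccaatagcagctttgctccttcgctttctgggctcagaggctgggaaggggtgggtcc
Slc16a3: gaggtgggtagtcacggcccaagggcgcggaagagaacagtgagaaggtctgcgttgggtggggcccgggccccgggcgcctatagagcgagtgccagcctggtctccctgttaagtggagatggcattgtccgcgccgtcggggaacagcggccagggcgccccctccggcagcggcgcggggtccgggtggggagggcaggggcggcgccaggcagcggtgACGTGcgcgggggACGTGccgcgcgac
Fbp2: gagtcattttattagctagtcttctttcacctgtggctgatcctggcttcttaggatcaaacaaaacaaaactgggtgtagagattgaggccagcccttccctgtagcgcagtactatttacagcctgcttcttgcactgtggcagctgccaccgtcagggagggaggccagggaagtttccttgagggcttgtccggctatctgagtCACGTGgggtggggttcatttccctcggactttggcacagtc
Ldha: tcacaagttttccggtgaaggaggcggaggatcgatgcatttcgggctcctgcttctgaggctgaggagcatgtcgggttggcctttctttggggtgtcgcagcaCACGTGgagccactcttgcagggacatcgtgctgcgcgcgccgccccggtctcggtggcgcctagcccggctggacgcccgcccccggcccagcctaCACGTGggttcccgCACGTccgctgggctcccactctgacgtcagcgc
Ldhb: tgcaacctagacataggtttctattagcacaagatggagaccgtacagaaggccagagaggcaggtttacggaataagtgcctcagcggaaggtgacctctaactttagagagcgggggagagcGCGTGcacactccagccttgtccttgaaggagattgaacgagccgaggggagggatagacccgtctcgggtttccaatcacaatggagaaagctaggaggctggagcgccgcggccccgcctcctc
The Ldha window holds 5 matches, 4 of them in 2 E-boxes, those of Pgk1 and Slc16a3 hold 2 each and no E-box, and the Fbp2 window holds 1 E-box, counted as 2 matches. The Ldhb window, of the gene with the largest fall, holds 1 match, 126 bases before the start.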

How the data were processed

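Bulk RNA libraries were made with a directional kit and read to 100 bases, per the labels' protocols. Per the submitters' processing notes, Trim Galore, STAR 2.7.9a and RSEM 1.3.3 were used; build and strand option: not given in the sources used here. The authors deposited 1 table per library with RSEM expected counts, which are estimated and not always whole, and TPM. Symbols were matched to 52083 of 55416 gene IDs (94.0%), and 229 of 230 symbols of the lists used were found.

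Expected counts were rounded to whole numbers and tested in R 4.3.3 with edgeR 4.0.16 (filterByExpr, TMM scaling, quasi-likelihood test, two-sided, Benjamini-Hochberg over all genes tested, threshold 0.05), TB against CON within each tissue. The difference between tissues and the comparison of control tissues came from 1 fit of all 14 libraries. Isozyme shares are percentages of a step's summed TPM, compared with exact two-sided permutation tests adjusted over 20 shares per tissue. DESeq2 1.42.0, limma-trend (limma 3.58.1, on log2 of TPM plus a pseudocount of 1), other scalings, no filter, a replicate block and leaving out each library were the alternatives; those for the control tissues were added after the data were seen. Fits were tested on simulated data. A count of 3 corresponds to 0.0491 to 0.0924 CPM, and total counts limit the precision of low genes such as Phkg1 in lung.

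The 38 genes, the 7 pathway lists and the 16 cell type marker lists were chosen with earlier results of these data known. All 38 are accounted for, with values in every sample for those past the threshold, those leading their step and those whose change differed between tissues. Of a pathway list the members past the threshold are named, or the 4 with the smallest p. Of the insulin and glucose sensing list in lung 3 are named, and 1 result is not reported here. Bsg, outside this rule, was chosen after its value was seen.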

Additional observations from a re-analysis of the deposited data

Results flagged for a closer look

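Among 58 groups of 5 TB lung values, 3 had a sample far from the others, and chance flags about 1 in 20 groups. Pgam2 was at 1.93 CPM in TB lung library 2, against 0.196 to 0.477 CPM in the other 4, and its share of mutase TPM there was 0.764%. The Slc2a4 share of carrier TPM was 0.846% in TB lung library 1.

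The change under tumour differed between lung and muscle in 28 of the 38 genes by the test of the difference itself (lung log2 change minus muscle log2 change, edgeR, adjusted over all genes). It was positive for the carriers Slc2a1 (2.48), Slc16a1 (3.29) and Slc16a3 (5.22), for Hk1 (1.5) and Hk2 (2.91), and for the upper glycolysis genes Gpi1 (1.20), Pfkl (2.61), Pfkp (1.96), Pfkfb1 (3.32), Aldoa (1.65) and Aldoc (3.67). In lower glycolysis it was positive for Tpi1 (4.96), Gapdh (3.57), Pgk1 (4.98), Pgam1 (3.67), Eno1 (4.0), Eno3 (3.51) and Pkm (4.11). The others of the 28 with a positive difference were Ldha (3.81), Pdk1 (2.21), Pygb (1.43), Gys1 (2.12) and Fbp2 (7.28). Among the 28 it was negative for Slc2a3 (-2.55), Slc2a4 (-2.24), Pfkfb3 (-2.67), Ldhb (-3.33) and Pygm (-4.57).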

How the results depend on the processing

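Of the 32 lung calls, 31 held in every alternative, Eno3 being the exception, and of the 28 calls for the tissue difference 22 did, the others being Hk1, Gpi1, Aldoa, Gys1, Slc2a4 and Pygb. The muscle count of 1 member was less stable: upper-quartile scaling gave 2, DESeq2 12, limma-trend on TPM 0, no filter 10, 1 fit of all 14 libraries 6, and leaving out 1 library 0 to 9. The calls over all genes moved as well. They were 760 higher and 1079 lower with upper-quartile scaling, 2093 and 1564 with DESeq2, and 157 and 258 with limma-trend. No filter gave 2253 and 1778, and 1 fit of all 14 libraries 1881 and 1578. Without TB library 2 there were 2447 and 2066. Leaving out 1 CON muscle library reduced the calls over all genes to 86, 51 and 33 higher and 157, 90 and 73 lower, against 1226 and 970. The 19 lung shares past the threshold became 0 without any 1 library, since fewer libraries allow only larger p-values.

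Same-numbered TB and CON libraries deviated together with r of 0.362, -0.040 and 0.409 in muscle and 0.056, 0.087 and -0.003 in lung. For differently numbered libraries r was -0.455 to 0.085 in muscle and -0.132 to 0.102 in lung. The numbers were not taken as pairs because no label says that they mark a shared litter, batch or day. With a replicate block 10 muscle members were called, beside 1627 higher and 1676 lower of all 14373 genes. The tissue differences of Slc2a4 (-2.24, adjusted p = 0.0573) and Gpi1 (0.83, adjusted p = 0.0879) then no longer passed.

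Signs turned, among values short of the threshold except the tissue difference of Pygb. In muscle this was so for Gapdh (0.02 with RLE scaling and with DESeq2, 0.0249 without the filter), Hk1 (-0.16, upper quartile), and with limma-trend Pfkl (0.036) and Gys1 (0.0058). Limma-trend also turned Pygb in lung (-0.19) and the tissue differences of Hk3 (-0.41), Pfkm (-0.32), Pygb (-0.10) and Phkg1 (1.23); RLE and DESeq2 turned that of Pygl (0.0203 and 0.0140). The Hk3 share in muscle was -0.0539 points from counts. Leaving out 1 library gave ranges across 0 in muscle for Slc2a3 (-0.33 to 0.81), Hk1 (-0.15 to 0.26), Aldoc (-1.01 to 0.77), Gapdh (-0.29 to 0.22), Pdk1 (-0.41 to 0.0821), Gys1 (-0.43 to 0.0201) and Fbp2 (-1.06 to 0.15), and in lung for Pfkfb4 (-0.42 to 0.21). It did so for the tissue differences of Pfkm (-0.34 to 0.32), Pygl (-0.28 to 0.21) and Phka1 (-0.0679 to 1.16), and for the muscle shares of Hk3 (-0.0432 to 0.0756 points), Pfkm (-0.456 to 0.158), Pfkp (-0.220 to 0.166) and Slc16a1 (-1.11 to 11.8). The causes were not tested. Upper-quartile scaling moved the muscle median of all genes to -0.25, and limma-trend the lung median to -0.23, with 3594 higher and 7994 lower calls there.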
